A study of Mus musculus with 2 samples.

Results

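Mir28a, Mir151 and Mir708 are 3 mouse microRNA genes that are grouped by related sequence, each lying in an intron of a gene for cell adhesion or cell contact. They were selected by gene symbol from the 2202 miRNA genes counted in small RNA libraries of C2C12 cells, and all 3 were found. C2C12 is a myoblast line grown from thigh muscle of C3H mice after a crush injury, and it fuses into myotubes when serum is withdrawn. The 2 libraries are biological replicates of 1 group with no treatment named. The labels do not state whether the cells were growing or differentiating, so the data hold no contrast between conditions. Both replicates come from the same cell line, and p-values here compare these libraries by their counting noise alone.

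A microRNA is cut from a hairpin in a longer transcript, and its bases 2 to 8, the seed, select target messenger RNAs by base pairing. An intronic microRNA is usually made from the transcript of the gene around it. Lpp, the host of Mir28a, encodes a LIM protein of focal adhesions and cell junctions. Ptk2, the host of Mir151, encodes focal adhesion kinase, which relays signals from integrins. Tenm4, the host of Mir708, encodes teneurin 4, a transmembrane protein of cell contacts. In mouse muscle, miR-708 is known as a microRNA of quiescent satellite cells, the resting stem cells of the tissue, where it restrains migration.

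The mature sequences show what Mir28a and Mir708 share, and are taken from RefSeq on GRCm38.p6, which held entries for 2 of the 3 members. They are written 5′ to 3′ with the seed, bases 2 to 8, in capitals.
miR-28a-5p: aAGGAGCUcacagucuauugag
miR-708-5p: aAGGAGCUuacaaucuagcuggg
miR-28b: aGGAGCUCacaaucuauuuag
miR-28a-3p: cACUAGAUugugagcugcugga
miR-708-3p: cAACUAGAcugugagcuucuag
The miR-28a-5p and miR-708-5p arms carried the same seed. Of 1738 mature mouse miRNAs in the table, these 2 alone held these 7 bases at position 2, and 9 held them at any position. Mir151 had no entry there, so its mature miRNAs were not part of this count. Bases 2 to 17 of miR-28a-5p, which include these 7 bases, also occur on the strand of the Mir151 hairpin. Their position in a mature miRNA of Mir151 could not be read without such an entry. The miR-28b sequence, from the Mir28b gene, began at what is the second base of miR-28a-5p, so its own seed was shifted by 1 base. Outside the seed the arms diverged. Over 22 aligned bases, miR-28a-5p and miR-708-5p were identical at 16 and differed by C9U, G13A, U18G, U19C, G20U and A21G, with positions counted from the 5′ end of miR-28a-5p. Of these, G13A and G20U were also the differences between miR-28a-5p and miR-28b, which were identical at 19 of 21 aligned bases. The 3p arms were identical at 17 of 21 aligned bases when set off by 1 base, so their seeds were not the same.

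On mm10 with GENCODE M21, Mir28a is an 86-base hairpin at chr16:24827855-24827940 on the plus strand, 434.3 kb into Lpp. Mir151 is a 68-base hairpin at chr15:73254815-73254882 on the minus strand, 168.4 kb into Ptk2, and the gene 1700085D07Rik spans it on the other strand. Mir708 is a 109-base hairpin at chr7:96249424-96249532 on the plus strand, 78.2 kb into Tenm4. Every annotated transcript that spans a hairpin has it in an intron, which holds for 3 transcripts of Lpp, 5 of Ptk2 and 7 of Tenm4. Mir151 lies 2.2 kb from the nearest exon upstream, Mir708 37.4 kb and Mir28a 62.7 kb. No other miRNA gene is annotated in Lpp or Ptk2. Tenm4 also holds Mir6394, on which neither library had a read.

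**Figure D1:**
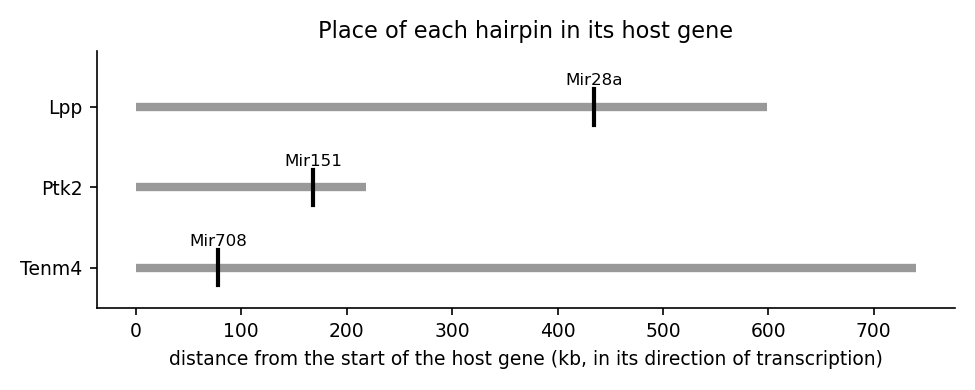
Place of the Mir28a, Mir151 and Mir708 hairpins (black ticks) in their host genes Lpp, Ptk2 and Tenm4 (grey bars, from start to end of the gene), in kb from the start of the host along its direction of transcription. Mir28a and Mir151 lie at 72.5% and 77.2% of the length of their hosts, and Mir708 at 10.6%.

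Levels are reads on the strand of the gene per 1000000 such reads on all miRNA genes of the library (CPM). That total was 27661907 reads in replicate 1 and 15025315 in replicate 2. The libraries hold RNA under 30 nucleotides, shorter than any of these hairpins, so the counts were not divided by hairpin length. Reads of both arms of a hairpin are summed in the tables. Mir21a, a miRNA of many dividing cells, took 23.1% of the total in replicate 1 and 53.5% in replicate 2, which leaves less of the total to the other genes in replicate 2. Of the 7 skeletal muscle genes checked, Mir206 reached 2559 CPM in replicate 1 against 1028 CPM in replicate 2. Mir133b had 88.0 and 20.4 CPM and Mir486 3.94 and 1.13 CPM. No read in either library fell on 3 others, namely Mir1a-1, Mir133a-1 and Mir133a-2. Mir1a-2 had 3 reads in replicate 1 and 0 in replicate 2. Mir1a and Mir133a exist in more than 1 copy. The neural genes summed to at most 0.0723 CPM and the epithelial genes to at most 20.4 CPM. The neural genes, of Mir9 and Mir124a, also exist in more than 1 copy. Reads that mapped to several places are not assigned to genes, so low counts of such genes do not show absence. The blood genes summed to 216 CPM in replicate 1 and 124 CPM in replicate 2, nearly all from Mir142. Mir223 and Mir451a were below 1 CPM in both libraries. The source of the Mir142 reads, and its part in the levels below, was not tested.

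Mir28a and Mir151 were abundant and Mir708 was lower. Mir28a had 255207 reads in replicate 1 and 46897 in replicate 2, or 9226 CPM (exact 95% interval 9190 to 9262) and 3121 CPM (3093 to 3150). These values averaged 6174 ± 4317 CPM (SD, n = 2), and Mir28a ranked 22nd of 2202 genes in replicate 1 and 33rd in replicate 2. The replicates of Mir28a were far apart, with the higher value in replicate 1.

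Mir151 had 157040 reads in replicate 1 and 49135 in replicate 2, or 5677 CPM (5649 to 5705) and 3270 CPM (3241 to 3299). It averaged 4474 ± 1702 CPM (SD, n = 2) and ranked 32nd in both libraries. The mean of Mir28a exceeded that of Mir151 by less than the SD of Mir28a, so the order of these genes was not resolved. Mir28a led in replicate 1 and Mir151 in replicate 2.

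Mir708 had 8050 reads in replicate 1 and 2519 in replicate 2, or 291 CPM (285 to 297) and 168 CPM (161 to 174). It averaged 229 ± 87.2 CPM (SD, n = 2), with rank 105 in replicate 1 and 108 in replicate 2. Both of its values lay below both values of Mir28a and of Mir151. Together the 3 genes took 1.52% of the counted reads in replicate 1 and 0.656% in replicate 2, a mean of 1.09% ± 0.611 (SD, n = 2). Copies of 1 molecule made by amplification cannot be recognised here, so the intervals cover counting error only.

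The genes directly above and below each member in mean level were picked for their nearness, so differences smaller than its SD are no finding. They were Mir155 and Mirlet7d for Mir28a, Mir98 and Mir125b-1 for Mir151, and Mir339 and Mir467e for Mir708. Mir339 stood at 316 CPM in replicate 1 and at 171 CPM in replicate 2. Its miR-339-5p also holds the 7 seed bases of miR-28a-5p, but from position 13 on, outside its own seed.

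**Figure D2:**
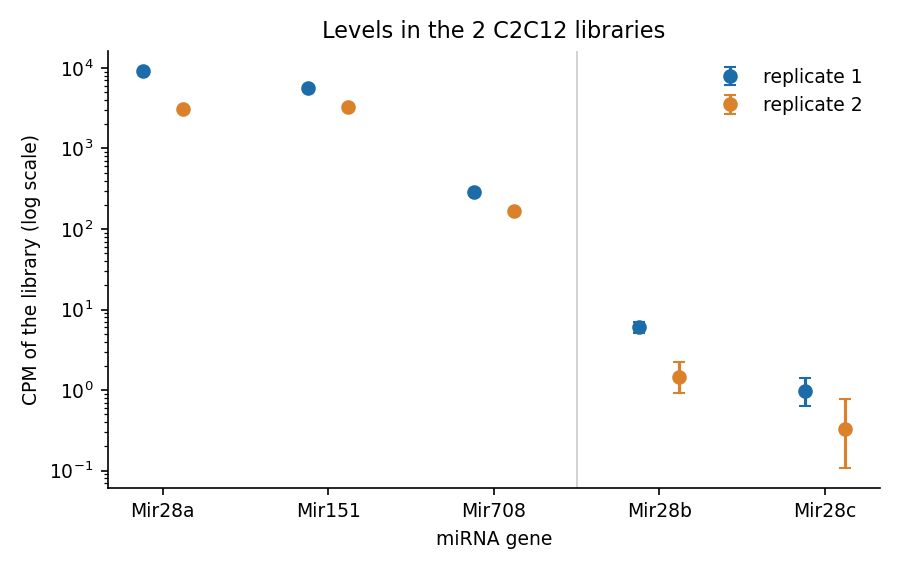
CPM on a log axis of Mir28a, Mir151 and Mir708 and, right of the line, of Mir28b and Mir28c, with 1 point per library and exact 95% counting intervals as bars, smaller than the points for the 3 genes on the left. Mir28a and Mir151 exchange order between replicate 1 and replicate 2, and Mir708 stays between 168 and 291 CPM.

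The other genes named miR-28 were far below the 3 members in level. Mir28b (chr8:73016512-73016591, plus strand), with no host on its strand, had 166 reads in replicate 1 and 22 in replicate 2, or 6.0 and 1.46 CPM. Mir28c (chr15:53614205-53614279, minus strand), within Samd12, had 27 reads in replicate 1 and 5 in replicate 2, or 0.976 and 0.333 CPM. A read count of 0 would allow up to 0.108 CPM in replicate 1 and 0.200 CPM in replicate 2, so both genes were above that limit in each library. Mir7080 and Mir6343, whose mature miRNAs hold the 7 bases elsewhere than at position 2, had no read in either library, nor did Mir3544, and Mir7663 had 29 reads in replicate 1 and 7 in replicate 2.

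Shared stretches between hairpins bear on how reads could be assigned. Of the 23 bases of miR-708-5p, 22 (bases 2 to 23) occur in the predicted miRNA gene Gm23134 at chr2:157562361-157562447 on the minus strand. The difference there is A1C, counted from the 5′ end of miR-708-5p. Gm23134, which lies within Blcap, had 5 reads in replicate 1 and 2 in replicate 2. Of the 22 bases of miR-28a-5p, 20 (bases 2 to 21) occur in Mir28c, after A1G. The longest stretch that the Mir151 hairpin shares with another miRNA gene on its strand was 17 bases, with Mir28c, and it shares 16 with Mir28a. For the 3p arms of Mir28a and Mir708 the longest such stretch on either strand was 13 and 15 bases. Reads that mapped to several places have a row of their own, 33.4% of all reads in replicate 1 and 22.8% in replicate 2, and cannot be assigned to genes. Mir708 and Mir28a may therefore be understated, and by how much was not tested.

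Ratios between members within a library do not depend on its total. Mir28a over Mir151 was 1.63 in replicate 1 (exact 95% counting interval 1.61 to 1.64) and 0.954 in replicate 2 (0.942 to 0.967). Mir28a over Mir708 was 31.7 in replicate 1 (31.0 to 32.4) and 18.6 in replicate 2 (17.9 to 19.4). Both ratios were 1.70-fold higher in replicate 1, and their intervals did not overlap between the libraries.

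Mir151 over Mir708 was 19.5 in both libraries, with an interval of 19.1 to 20.0 in replicate 1 and 18.7 to 20.3 in replicate 2. The ratio in replicate 1 over that in replicate 2 was 1.00 (counting interval 0.955 to 1.05). As shares of the reads of the 3 genes, Mir28a held 60.7% in replicate 1 and 47.6% in replicate 2, Mir151 37.4% and 49.9%, and Mir708 1.92% and 2.56%.

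Such shifts are set beside those of other abundant genes. Among 62 genes with at least 1000 CPM in both libraries there are 1891 pairs. The median pair ratio changed 1.33-fold between the libraries, and 27.3% of pairs changed by at least as much as Mir28a over Mir151. The order of the pair was not the same in both libraries for 183 pairs, or 9.68%. These are descriptions over pairs that share genes, with no test.

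**Figure D3:**
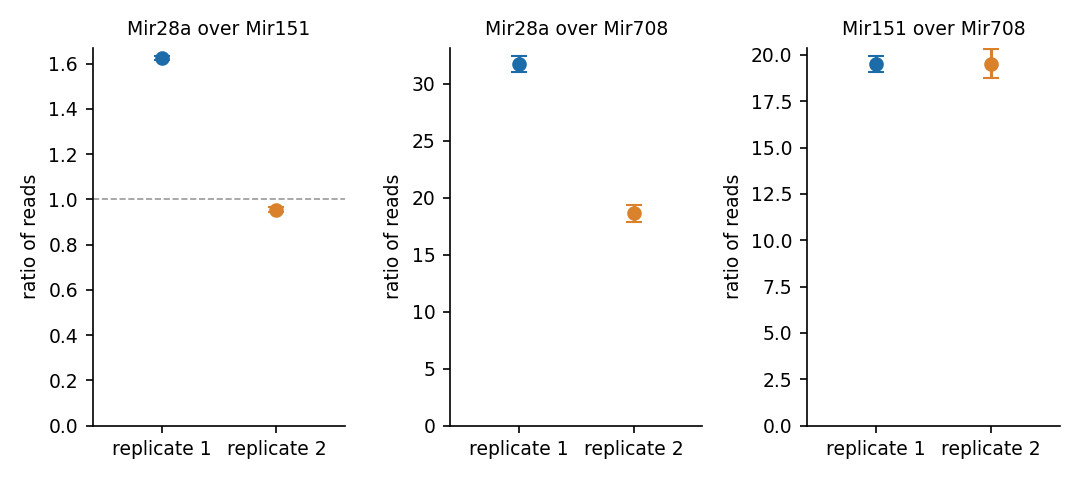
Ratio of the reads of 2 genes within each library, on linear axes from 0, with exact 95% counting intervals as bars and a dashed line where Mir28a equals Mir151. The ratios with Mir28a are higher in replicate 1, while Mir151 over Mir708 is 19.5 in both replicates.

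The libraries were then compared gene by gene with an exact binomial test over 556 genes with at least 10 reads. Trimmed-mean (TMM) scaling and Benjamini-Hochberg adjustment were used. This test compares replicate 1 with replicate 2, not conditions, and only counting noise enters it. It called 41.5% of the genes, 16.9% higher and 24.6% lower in replicate 1. The 3 muscle genes tested, Mir206, Mir133b and Mir486, were all called higher in replicate 1, with log2 ratios of 0.42, 1.21 and 0.87, and their part in the ratios below was not tested. Mir28a was called higher in replicate 1, with a log2 ratio of 0.67 (counting SE 0.00725), or 1.59-fold. Its adjusted p was too small to be held by the calculation.

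Mir151 was called lower in replicate 1 with a log2 ratio of -0.10 (counting SE 0.00746, adjusted p = 3.44e-41, exact binomial test). Mir708 also had a log2 ratio of -0.10 (counting SE 0.0329, adjusted p = 0.00587, exact binomial test). Scaling decides these small ratios. By library totals, which moves the ratio of every gene by 0.90, both had a log2 ratio of 0.80 and were called higher in replicate 1. Library totals called 59.4% of the genes, 54.7% higher and 4.68% lower in replicate 1. With DESeq2 size factors, which called 19.2% higher and 22.3% lower, Mir151 was still called lower, at -0.040, and Mir708 was not called (-0.040, adjusted p = 0.374, exact binomial test).

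Relative to the median of the tested genes, a difference that no scaling changes, Mir28a was 0.76 higher on the log2 scale in replicate 1. Mir151 and Mir708 each lay 0.01 below that median. The spread between the replicates was estimated from these same 2 libraries, with the members included, so it is no independent measure. Its common coefficient of variation of 0.344 implies an SD of 0.70 for the log2 ratio of the libraries. None of the 3 exceeded that SD. Mir28a lay at 0.948 of that SD, and Mir151 and Mir708 at 0.145 and 0.146. Of the 210 genes with a mean of at least 10 CPM, 25.2% had a larger absolute ratio than Mir28a. The median absolute log2 ratio of these 210 genes was 0.33.

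Mir28b shared the direction of Mir28a, with a log2 ratio of 1.11 (counting SE 0.324, adjusted p = 0.00069, exact binomial test). Mir28c had 0.54 (counting SE 0.674, adjusted p = 0.6, exact binomial test) and was not called. In ratio between the libraries, the nearest genes to Mir151 among 137 others with a mean of at least 100 CPM were Mir708 and Mir615, each at -0.10. The nearest to Mir28a were Mir467c at 0.70 and Mir26b at 0.59. This likeness rests on 2 libraries.

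**Figure D4:**
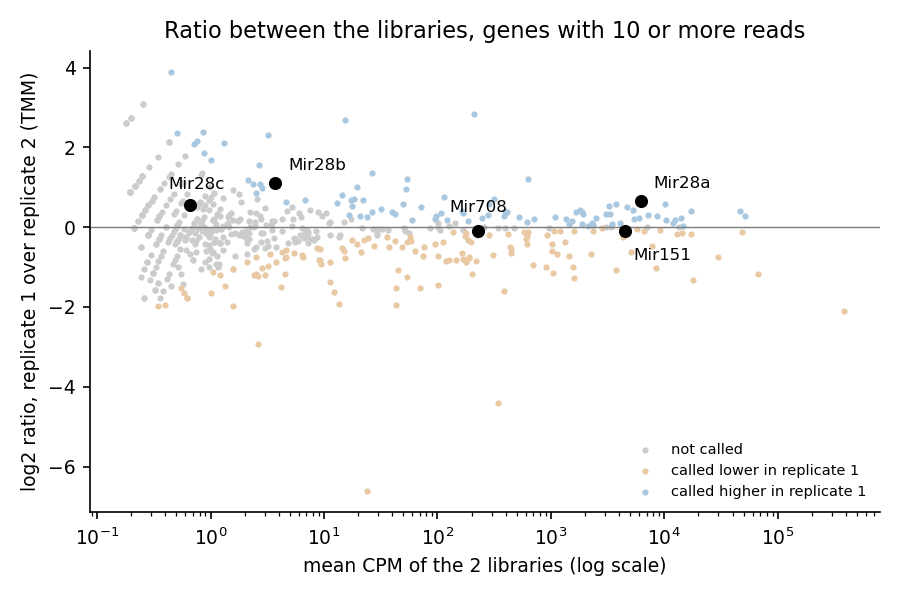
Log2 ratio of replicate 1 over replicate 2 after TMM scaling against mean CPM on a log axis, for the 556 genes tested, coloured by the call of the exact binomial test, with the miR-28, miR-151 and miR-708 genes in black. Mir151 and Mir708 lie together at -0.10, and Mir28a at 0.67.

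Reads on the strand opposite to the gene were found at Mir708 alone of the 3. Mir708 had 143 of them in replicate 1 and 34 in replicate 2, which is 1.75% (exact 95% interval 1.47 to 2.05) and 1.33% (0.924 to 1.86) of the reads on both strands. The intervals overlap, and the mean was 1.54% ± 0.292 (SD, n = 2). Mir28a and Mir151 had 0 opposite reads in both libraries, which allows a share of up to 0.00118% and 0.00191% in replicate 1 and 0.0064% and 0.00611% in replicate 2.

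No other gene of the annotation spans Mir708 on the opposite strand. Over all 312 genes with at least 100 reads, 57 (18.3%) had any opposite read and 27 had a larger share of them than Mir708. Of these genes, 282 overlap no other miRNA gene, and 33 of the 282 had opposite reads, 7 of them with a larger share than Mir708. By sequence, miR-708-3p resembles the other strand of its relatives. The reverse complement of miR-28a-5p shares a run of 13 bases with it, from base 5 to base 17, here in capitals.
miR-708-3p: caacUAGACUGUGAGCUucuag
The other strand of the Mir151 hairpin shares a longer run with it, of 15 bases. The part of these likenesses in the opposite-strand reads was not tested.

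Other miRNA genes in hosts for adhesion, cell contact or guidance were mostly below 1 CPM. Beside the 3 members, 15 miRNA genes lay in a host of that list. Of these, 3 (20.0%) reached 1 CPM in both libraries, against 14.5% of all 2202 genes and 19.7% of the 1179 genes with a host on their strand. Mir126a, an endothelial miRNA in Egfl7, reached 213 CPM in replicate 1 against 134 CPM in replicate 2. Mir190a, in the talin gene Tln2, had 151 and 63.5 CPM. Mir218-1, in the guidance gene Slit2, had 6.83 and 2.33 CPM. No read fell on 8 of the 15, among them Mir488 in Astn1. The 5 tested genes had a median log2 ratio of 0.35 after TMM scaling, against -0.09 over all tested genes, with 2 called higher and 1 lower in replicate 1, beside 16.9% higher and 24.6% lower over all tested genes. Library totals gave 4 higher and 0 lower, beside 54.7% and 4.68% over all tested genes.

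Among miRNAs known from quiescent satellite cells, Mir708 was the lowest of the 4 with reads. Mir31 stood at 31179 CPM in replicate 1 and at 28011 CPM in replicate 2, Mir195a 1215 and 1045 CPM, and Mir497 712 and 512 CPM. Mir489, in Calcr, had no read in either library. After TMM scaling the 4 genes with reads were called lower in replicate 1, with a median log2 ratio of -0.55, beside 24.6% of all tested genes called lower. The log2 ratios were -0.74 for Mir31, -0.68 for Mir195a and -0.42 for Mir497, but only -0.10 for Mir708. With DESeq2 size factors 3 were called lower, beside 22.3% of all, and Mir708 was not called. By library totals all 4 were called higher there, beside 54.7% of all tested genes.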

How the data were processed

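Small RNA of C2C12 cells was sequenced in 2 biological replicates. The authors deposited whole-number read counts per miRNA gene, on either strand, on the strand of the gene and on the opposite strand. The mm10 build and GENCODE M21 are named in the deposited readme files, while the names of the aligner and counter were not given in the sources used here. All 2202 gene identifiers matched GENCODE M21, which supplied symbols, positions, hosts and hairpin sequences, and mature sequences are from RefSeq (GRCm38.p6). Rows that name no gene made up 49.7% of replicate 1 and 38.8% of replicate 2 and stayed out of totals and tests.

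With a single group, no contrast could be fitted. Levels are descriptions. The libraries were compared with a two-sided exact binomial test (SciPy 1.17.1) on sizes scaled by TMM (edgeR 4.0.16, R 4.3.3), with a prior count of 0.5 and a threshold of 0.05. The test was checked on simulated counts that held counting noise alone, so that check does not cover the spread between replicates. The strand column was chosen because it held nearly all reads on genes. Genes named are the members, relatives by sequence, rows in their hosts, nearest genes in level and ratio, and 2 lists, of adhesion hosts and satellite cell quiescence. Markers of 6 cell types served as a check. Sdccag8, which matched the syndecan names by its letters only, was left out. The members and lists were chosen with earlier results of these data known. As alternatives, size factors of DESeq2 1.42.0 or library totals replaced TMM, filters, denominators and strand columns were changed, and each replicate was left out.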

Additional observations from a re-analysis of the deposited data

Results flagged for a closer look

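Mir708 had 143 reads on its opposite strand in replicate 1 and 34 in replicate 2, above the 3 reads that a count of 0 allows. These reads lie outside the strand used for levels. No control libraries were analysed here.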

How the results depend on the processing

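Of 80 values recomputed under other settings, 67 kept their direction and their side of the threshold or moved by less than their spread, 8 moved further, 3 reversed and 2 no longer passed the threshold. A mean of 2 replicates cannot move beyond their SD when either is left out. For those settings only a reversal of sign could appear, so the values that stayed there are no check. The level of Mir151 was 7207 per 1000000 reads on genes other than Mir21a and 2427 per 1000000 reads of the whole table, and that of Mir708 369 and 124. That of Mir28a, 6174, was 9353 and 3273 under these denominators, within its SD of 4317. The mean log2 ratio of Mir28a over Mir151, 0.32, ranged from -0.067 to 0.70 when either replicate was left out. That of Mir151 over Mir708, 4.29, was 4.26 with counts of either strand and 4.28 with the reads of Gm23134 added to Mir708, an alternative chosen after seeing the data. The log2 ratio of replicate 1 over replicate 2 was 0.80 by library totals for both Mir151 and Mir708. For Mir708 it was -0.040 with DESeq2 size factors (adjusted p = 0.374, exact binomial test) and -0.059 with genes of at least 1 count (adjusted p = 0.212, exact binomial test), where it was not called. Library totals called 304 genes higher and 26 lower in replicate 1, against 94 and 137 with TMM. Apart from the change of scaling itself, the cause was not tested. Low read numbers limit the values of Mir28b, Mir28c and Gm23134. No paired analysis was possible because the libraries form a single group.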
